A study of Homo sapiens with 21 samples.

Results

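The response of hTERT-HPNE cells to 8 h of hydrogen peroxide (H2O2) was examined by comparing 3 treated RNA-seq libraries with 3 untreated ones, 6 of the 21 libraries of the study. hTERT-HPNE is a non-transformed human pancreatic cell line immortalized with telomerase. The 8 h group received 300 µM H2O2 in fresh medium, and the untreated group was harvested at 0 h without H2O2. No 8 h mock group was analysed here, so the effects of H2O2 and of 8 h in fresh medium, which contained serum and EGF, cannot be told apart in this comparison. For context, H2O2 groups at 4 h and 24 h and a group treated for 8 h with 400 ng/ml neocarzinostatin (NCS), a drug that causes DNA double-strand breaks, were used, each with 3 libraries in the same cells and likewise in fresh medium. Per the study's methods, the libraries of a group were biological replicates. All groups came from a single cell line. Of 23368 genes listed, 3674 were at 0 in every library, and the 19694 whose values varied were tested.

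H2O2 is a small oxidant that crosses membranes and oxidizes cysteine thiols, lipids and DNA bases. Cells answer it with several transcriptional programs. NRF2, freed from its inhibitor KEAP1, drives glutathione, thioredoxin and heme-degrading enzymes. The kinases of the integrated stress response (ISR) phosphorylate the initiation factor eIF2α, which lowers general translation while ATF4 is translated and induces genes of amino acid supply. Damaged DNA stabilizes p53, which induces the cell cycle inhibitor CDKN1A (p21) and death genes such as PMAIP1 (NOXA) and BBC3 (PUMA), and through p21 the DREAM complex represses genes of cell division. MAP kinases (ERK, JNK and p38) drive the AP-1 factors of the FOS, JUN and ATF families.

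The values were regularized log (rLog) counts, which are log2 values that DESeq2 shrinks toward the gene's mean where counts are low, so a difference between groups is a log2 difference that understates changes of low genes. They carry no correction for gene length, so the level of one gene is not read against that of another, and marker values are given only as each gene's range over the 6 libraries compared here. Library medians lay between 7.145 and 7.189, and the read depth is unknown because no counts were used. The mesenchymal markers VIM, NES, COL1A1, FN1, CD44 and S100A6 were at 11.78 or above in all 6 libraries. Of 7 markers of simple epithelium, KRT18 lay between 11.50 and 11.67, KRT8 between 7.73 and 8.05, KRT7 between 6.61 and 7.09, MUC1 between 5.84 and 6.22 and CDH1 between 3.71 and 3.82. The other two, KRT19 and EPCAM, did not exceed 0.66 and -1.76. Markers of acinar, endocrine, leukocyte and endothelial cells did not exceed 3.27, the value of VWF, and PRSS1, CELA3A, INS and CD3E were listed at 0.

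Replicate 2 of the 8 h group responded less than the other libraries of its group. Over all 19694 genes, the differences of replicate 2 from the untreated mean had a slope of 0.673 on the mean differences of replicates 1 and 3, where a slope of 1 means an equal response. The slopes of replicates 1 and 3 on the mean of the remaining libraries were 1.135 and 1.135, and the libraries of the other 5 treated groups had slopes between 0.912 and 1.006. The direction of the response was shared, with a Pearson correlation across genes of 0.933 for replicate 2, 0.953 for replicate 1 and 0.950 for replicate 3. Genes are not independent replicates, and these values describe the libraries only. The Euclidean distance of replicate 2 from the untreated mean was 23.87, against 33.55 and 33.67 for replicates 1 and 3. Replicate 2 was kept in the analysis, and counts are given with and without it.

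Genes were called where the log2 difference was larger than 1 in size and limma's p-value, adjusted by Benjamini-Hochberg over all genes tested, was below 0.05. By these limits, 63 genes (0.32% of the genes tested) were higher at 8 h of H2O2 than in untreated cells and 39 (0.198%) were lower. Without replicate 2, 90 genes were higher, including all 63, and 61 were lower, including all 39. By contrast, 54 were higher and 24 lower without replicate 1, and 53 and 29 without replicate 3. The adjusted p-value alone called 3696 genes higher (18.8%) and 3672 lower (18.6%). Below, "rose" and "fell" refer to this adjusted p-value. The limit of 1 split genes with nearly equal values. THSD1 (1.001), DYRK3 (1.004) and ZFPM1 (1.012) lay just inside it and PSTPIP2 (0.999), HSPA5 (0.995) and GDNF (0.986) just outside it. Among genes that fell, ANLN (-1.004), CDCA8 (-1.009) and CIT (-1.012) lay just inside, and DEPDC1B (-0.991), HJURP (-0.986) and CDKN2C (-0.985) just outside.

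**Figure D1:**
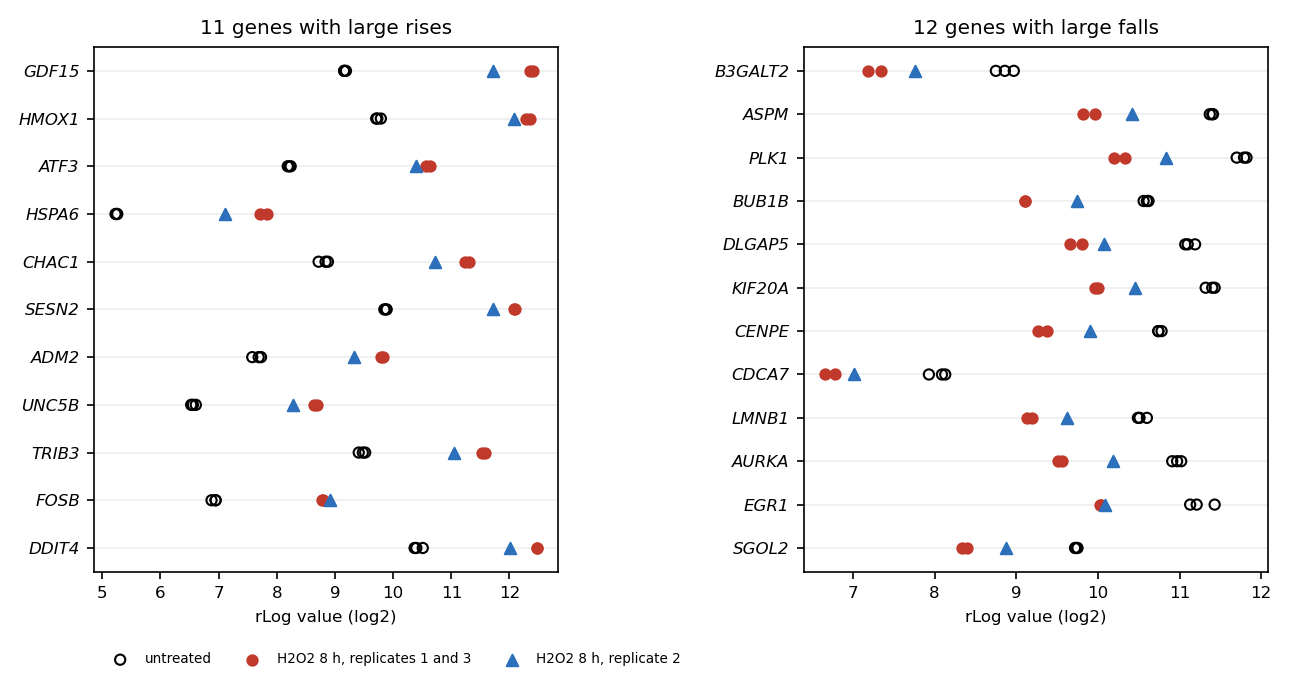
rLog values (log2, horizontal axis) of 11 of the 12 genes with the largest rise and the 12 with the deepest fall at 8 h, 1 point per library, with 3 untreated libraries as open circles, H2O2 8 h replicates 1 and 3 as filled circles and replicate 2 as a triangle. Only genes whose groups do not overlap were chosen. Replicate 2 lies nearer the untreated libraries than replicates 1 and 3 do, except for FOSB, where it is the highest of the 8 h libraries.

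The genes with the largest rises were stress genes of several programs. GDF15, a secreted stress cytokine induced by both p53 and the ISR, had values of 9.16, 9.16 and 9.19 in untreated cells and of 12.40, 11.71 and 12.35 in H2O2-treated cells. All treated libraries lay above all untreated ones, as the choice of these genes required, and replicate 2 was the lowest of the treated group. The log2 difference was 2.98 (SE 0.11, adjusted p = 2.07e-12 from limma). This SE and p-value, like those of the genes below, rest on a spread estimated over all 7 groups. It does not describe the wider spread of the 8 h libraries alone. In a limma fit of the compared groups only, the adjusted p-value of GDF15 was 0.00183 and that of ASPM, described below, was 0.00283. HMOX1, the heme oxygenase induced by NRF2, rose from 9.73, 9.79 and 9.71 to 12.29, 12.08 and 12.36, a difference of 2.50 (adjusted p = 1.34e-15). Its replicate 2 reached 90.4% of the mean difference of replicates 1 and 3. ATF3, an AP-1 and ISR factor, had untreated values of 8.24, 8.22 and 8.19 and treated values of 10.56, 10.39 and 10.64, a difference of 2.32. The 3 treated libraries of ATF3 lay close together, with replicate 2 at 91.2% of the others. FOSB, an AP-1 subunit of the immediate-early class, was at 6.95, 6.88 and 6.95 before and at 8.78, 8.92 and 8.79 after treatment, a difference of 1.90. It was the only gene of the 102 called in which the difference of replicate 2 exceeded that of replicates 1 and 3, at 107% of their mean.

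Another gene of this group was HSPA6 (2.30), an HSP70 gene that is nearly silent without stress. It started low, at 5.25, 5.26 and 5.23 in untreated cells, and was at 7.83, 7.11 and 7.71 in treated cells, with replicate 2 again the lowest. CHAC1 (2.27) degrades glutathione, SESN2 (2.09) and DDIT4 (1.89) restrain the growth kinase mTORC1, and TRIB3 (1.92) is a pseudokinase that dampens ATF4. ADM2 (1.99) encodes a peptide hormone and UNC5B (1.97) a netrin receptor. Of the 63 genes that were called higher, 12 had an untreated mean under 7.

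Of the 12 deepest falls, 8 were of genes that act in the mitotic spindle, its checkpoint or at centromeres. ASPM, a spindle-pole protein, fell from 11.40, 11.41 and 11.37 to 9.82, 10.42 and 9.97, a difference of -1.32 (SE 0.10, adjusted p = 5.05e-09 from limma). PLK1, a kinase that drives entry into and passage through mitosis, fell from 11.70, 11.79 and 11.82 to 10.20, 10.84 and 10.33, a difference of -1.31 (adjusted p = 1.86e-08). In both genes replicate 2 fell least. The checkpoint kinase gene BUB1B was at 10.60, 10.56 and 10.62 before and at 9.11, 9.74 and 9.11 after treatment (-1.27). DLGAP5 (-1.27) stabilizes spindle microtubules, KIF20A (-1.24) and CENPE (-1.24) are mitotic kinesins, AURKA (-1.21) is a centrosome kinase, and SGOL2 (-1.20) protects cohesin at centromeres. LMNB1 (-1.22), the nuclear lamin B1, and CDCA7 (-1.24), a MYC and E2F target, fell with them. B3GALT2, a galactosyltransferase, had the deepest fall of all, from 8.97, 8.86 and 8.75 to 7.19, 7.76 and 7.34 (-1.43). EGR1, an immediate-early factor downstream of ERK, was the member of this group with the least difference between treated libraries. It was at 11.21, 11.43 and 11.13 before and at 10.02, 10.09 and 10.04 after treatment (-1.20).

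The promoters of 6 of these genes are shown because short elements known for ISR and cell cycle genes could be read in them. ATF4 pairs with C/EBP proteins on a composite C/EBP-ATF element, searched here as TGATGNAA, and the DREAM complex binds the cell cycle genes homology region (CHR), searched as TTTGAA. Both strands were searched, from 250 bases before to 50 bases after the start site, in the RefSeq promoters of GRCh38.p14. A single start site was searched per gene. A gene, ATF3 included, may have other start sites, and the stretch shown need not be the promoter used in these cells. Each line gives the 250 bases before the start site, 5′ to 3′ along the gene, with the matched element in capitals. For ISR genes these were chr1:212565157-212565406 (plus strand, element starting at position -191 from the start site), chr15:40953221-40953470 (plus strand, -209) and chr7:97872409-97872658 (minus strand, -68). For genes of mitosis they were chr1:197146670-197146919 (minus strand, -113), chr16:23678639-23678888 (plus strand, -29) and chr15:40160819-40161068 (plus strand, -23). In CHAC1 and ASPM the element reads on the opposite strand.
ATF3: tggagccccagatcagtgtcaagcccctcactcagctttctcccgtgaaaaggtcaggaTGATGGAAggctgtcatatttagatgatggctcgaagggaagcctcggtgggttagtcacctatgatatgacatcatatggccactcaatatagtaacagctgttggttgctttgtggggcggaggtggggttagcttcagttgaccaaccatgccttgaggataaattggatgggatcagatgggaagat
CHAC1: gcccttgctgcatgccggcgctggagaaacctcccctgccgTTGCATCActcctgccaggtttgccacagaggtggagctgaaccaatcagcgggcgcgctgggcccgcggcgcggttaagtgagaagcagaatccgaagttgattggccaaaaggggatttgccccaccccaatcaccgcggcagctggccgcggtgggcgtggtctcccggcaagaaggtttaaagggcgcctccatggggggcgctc
ASNS: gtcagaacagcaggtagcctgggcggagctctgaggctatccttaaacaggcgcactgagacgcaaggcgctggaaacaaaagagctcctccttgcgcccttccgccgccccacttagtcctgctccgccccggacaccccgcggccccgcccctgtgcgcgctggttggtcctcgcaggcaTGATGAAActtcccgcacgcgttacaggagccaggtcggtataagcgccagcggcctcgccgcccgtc
ASPM: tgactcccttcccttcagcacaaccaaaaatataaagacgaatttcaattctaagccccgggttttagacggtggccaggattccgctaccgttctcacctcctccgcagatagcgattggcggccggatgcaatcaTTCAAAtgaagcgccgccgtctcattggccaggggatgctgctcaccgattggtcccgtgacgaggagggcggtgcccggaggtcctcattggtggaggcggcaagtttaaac
PLK1: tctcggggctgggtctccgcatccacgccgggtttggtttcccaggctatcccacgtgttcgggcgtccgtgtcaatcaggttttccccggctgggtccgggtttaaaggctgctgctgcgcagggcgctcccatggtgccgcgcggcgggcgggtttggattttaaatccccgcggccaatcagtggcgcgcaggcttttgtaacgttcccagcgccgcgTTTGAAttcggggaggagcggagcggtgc
BUB1B: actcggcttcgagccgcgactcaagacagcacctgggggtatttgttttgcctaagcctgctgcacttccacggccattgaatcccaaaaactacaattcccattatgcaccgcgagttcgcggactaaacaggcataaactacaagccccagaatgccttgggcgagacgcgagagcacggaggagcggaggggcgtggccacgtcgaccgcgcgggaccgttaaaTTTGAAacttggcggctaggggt

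Promoters were found for 35 of the 39 genes called lower, and 24 of these (68.6%) held the CHR letters. The letters were found in 15.4% of all 27305 promoters and in 11% of the 12579 promoters matched to tested genes. Of the 42 promoters found for the 63 genes called higher, 3 (7.14%) held them. In the G2 and mitosis list described below, which shares 23 genes with those called lower, 25 of 39 promoters (64.1%) held them. The CCAAT letters, which the factor NF-Y binds and which are not part of the CHR, stood in 62.9% of the promoters of genes called lower, against 38.1% of those called higher and 35.7% of all promoters. They also stood in 79.5% of the promoters of the G2 and mitosis list and in 62.5% of those of the ISR list. This share was therefore not particular to the genes called lower. The C/EBP-ATF letters stood in 5 of the 42 promoters of genes called higher (11.9%), in none of the 35 of genes called lower, and in 3.67% of all promoters. In the ISR list described below, 5 of 24 promoters (20.8%) held them. The core of the antioxidant response element that NRF2 binds (TGACNNNGC) was in 19% of 21 promoters of the NRF2 list and 13.6% of all. It was in 33.3% of the ISR list, 26.2% of genes called higher and 20% of genes called lower, so the NRF2 list did not stand above these. A heat shock element (GAANNTTC) was in 44.4% of the 18 promoters found for the heat shock list against 6.87% of all. A match describes letters in this window and is not a measured binding site.

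**Figure D2:**
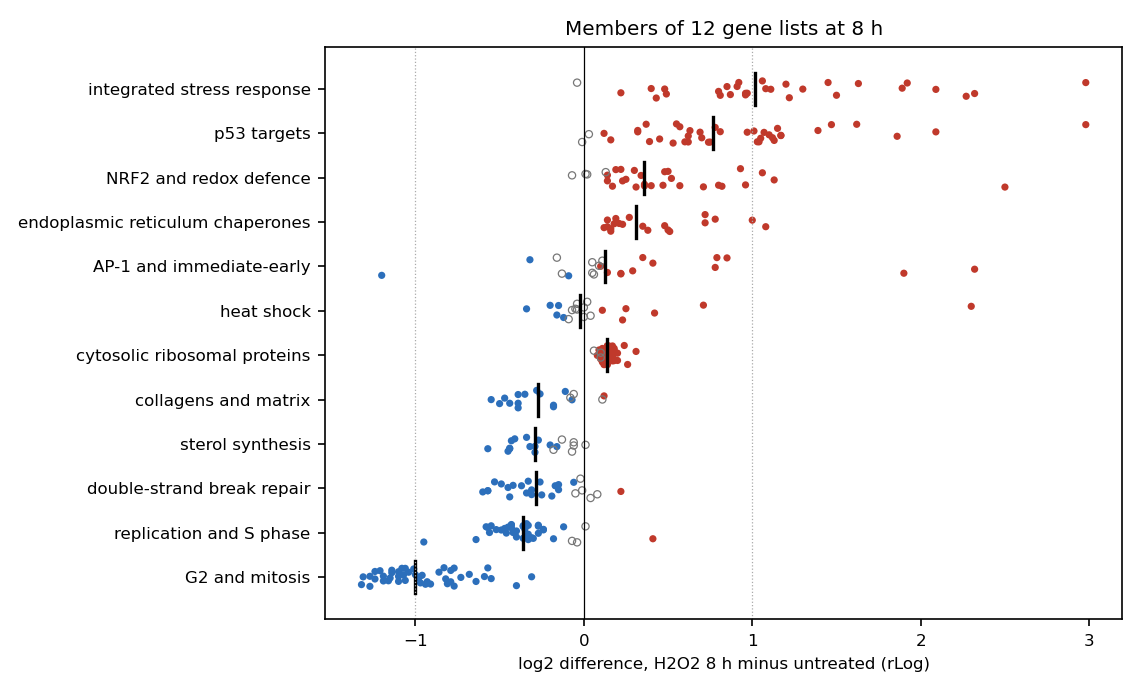
Log2 difference between H2O2 8 h and untreated cells (horizontal axis, rLog) for the members of 12 gene lists, 1 point per gene. Filled points have an adjusted p-value under 0.05 (red higher, blue lower), open points do not, black bars are list medians and dotted lines mark a difference of 1. The ISR list (median 1.02) and the p53 list (0.77) lie to the right and the G2 and mitosis list (-1.004) to the left.

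Gene lists compiled by hand, with earlier results of these data known, were followed. Their counts are set beside the 18.8% of genes that rose and the 18.6% that fell among all genes tested, whose median difference was 0.00. The counts describe the lists and do not test them. Among the 11681 genes with a mean value of at least 5, fitted alone, 3159 rose and 3742 fell. These are larger shares than over all genes. Of 30 ISR genes, 29 rose, 15 of them by more than 1, none fell, and the median difference was 1.02. ATF4 itself, the central factor of the ISR, was at 12.84, 12.75 and 12.78 in untreated and 13.87, 13.54 and 13.88 in treated cells (0.97, adjusted p = 6.03e-10 from limma). DDIT3 (CHOP), which ATF4 induces and which promotes death under lasting stress, was at 8.53, 8.43 and 8.57 before and 9.79, 9.53 and 9.82 after (1.20). The groups overlapped in neither gene. Enzymes of amino acid supply, chosen here after their values were seen, rose as well. ASNS, asparagine synthetase, went from 10.96, 10.77 and 10.94 to 12.43, 12.13 and 12.47 (1.45). PSAT1 (1.50), of serine synthesis, and MTHFD2 (1.30), of mitochondrial one-carbon metabolism, were similar, as was the cystine transporter gene SLC7A11 (0.96). ATF5 was the member that did not pass (-0.04, adjusted p = 0.618).

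Of 40 p53 target genes, 38 rose, 17 of them by more than 1, and none fell, with a median of 0.77. GDF15 and SESN2 stood on this list and on the ISR list. CDKN1A, which blocks cyclin-dependent kinases, had values of 14.13, 14.14 and 14.08 in untreated cells and 15.87, 15.44 and 15.91 in treated cells, a difference of 1.62 (adjusted p = 3.2e-11 from limma). MDM2, the ubiquitin ligase that degrades p53, rose from 11.72, 11.75 and 11.63 to 13.23, 12.90 and 13.12 (1.39). In both, all treated libraries lay above all untreated ones and replicate 2 was the lowest of them. BTG2 (1.86), an antiproliferative gene, and TP53INP1 (1.47), a p53 cofactor, were the other members with the largest rises. Other p53 targets differed in size. GADD45A, a stress sensor of the MAP kinase pathways, rose by 1.17. PIDD (0.70), which activates caspase-2, the ribonucleotide reductase subunit gene RRM2B (0.57) and XPC (0.37), a damage sensor of nucleotide excision repair, rose by less than 1. TP53I3, an oxidoreductase gene, was at 10.60, 10.66 and 10.63 in untreated cells and at 10.67, 10.77 and 10.82 in treated cells, a difference of 0.12 (adjusted p = 0.00909 from limma). It did not pass in a fit of the compared groups only (adjusted p = 0.0759) or without treated replicate 3 (adjusted p = 0.0645). DDB2 (0.03, adjusted p = 0.637) and POLK (-0.01, adjusted p = 0.903), of DNA repair and lesion bypass, did not pass.

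Among death genes of the BCL2 family, 6 of 13 BH3-only and BAX-type genes rose and none fell. BBC3 was at 7.29, 7.46 and 7.47 in untreated and at 8.64, 8.36 and 8.68 in treated cells (1.15, adjusted p = 3.11e-10 from limma). PMAIP1 was at 10.10, 10.16 and 10.04 against 11.34, 11.00 and 11.09 (1.04, adjusted p = 1.25e-09). Treated libraries of both genes lay above all untreated ones. Without replicate 1 the difference of PMAIP1 was 0.94, which is below the limit of 1. BAK1 (0.62), BCL2L11 (0.36), BAX (0.16) and BNIP3 (0.15) rose less. Of 5 anti-apoptotic genes, MCL1 (0.30), BCL2L1 (0.25) and BCL2L2 (0.25) rose, BCL2 fell (-0.17) and BCL2A1 did not pass (0.01).

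Redox defence genes rose widely but, apart from HMOX1, by smaller amounts. Of 30 NRF2 and redox genes, 26 rose and none fell, with a median of 0.36, and 3 rose by more than 1. TXNRD1, thioredoxin reductase, went from 13.63, 13.55 and 13.62 to 14.77, 14.47 and 14.75 (1.06, adjusted p = 9.27e-11 from limma), and OSGIN1, an oxidative stress-induced growth inhibitor, from 8.51, 8.73 and 8.78 to 9.89, 9.61 and 9.92 (1.13). SRXN1, which repairs oxidized peroxiredoxins, rose by 0.93 and SLC7A11 by 0.96. The NRF2 gene NFE2L2 rose by 0.31 and its inhibitor KEAP1 by 0.17. AKR1B10 (0.13), AKR1C2 (0.02), AKR1C3 (0.01) and ABCC1 (-0.07) did not pass. In addition, SLC30A1, which exports zinc from the cell, rose from 8.26, 8.26 and 8.40 to 9.90, 9.69 and 9.88 (1.52), and 6 of the 9 metallothionein and zinc genes rose, with MT1M (0.59) next, although metallothionein genes are near-identical and may share reads.

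All 20 endoplasmic reticulum chaperone and unfolded protein genes rose, with a median of 0.31. DNAJB9 (1.08) and HSPA5 (1.00, the chaperone BiP) had the largest differences, and the sensor gene ERN1 (0.72), its target XBP1 (0.72) and HERPUD1 (0.78) followed. Heat shock genes were split. Of 20 genes, 6 rose and 5 fell, with a median of -0.02. HSPA1B (0.71), HSPA1A (0.42) and HSPA6 rose, but these genes have near-identical copies (HSPA1A and HSPA1B of each other, HSPA6 of HSPA7) and their counts could be exchanged. HSPA8, the constitutive HSC70, was at 15.94, 15.98 and 15.96 before and at 15.56, 15.74 and 15.55 after treatment (-0.34). HSP90AA1 (-0.20) and HSPH1 (-0.16) also fell.

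Of 22 AP-1 and immediate-early genes, 12 rose and 3 fell, with a median of 0.12. After ATF3 and FOSB the largest rises were of KLF4 (0.85) and NR4A1 (0.79), and the largest fall was that of EGR1. FOS was at 6.82, 6.93 and 6.89 in untreated and 6.58, 6.89 and 6.70 in treated cells and JUN at 11.23, 11.41 and 11.26 against 11.46, 11.27 and 11.33. The libraries of both genes overlapped between groups and neither passed (FOS -0.16, adjusted p = 0.147 from limma, and JUN 0.05, adjusted p = 0.541). Of 15 MAPK phosphatase and feedback genes, 10 rose, led by DUSP5 (0.82) and DUSP4 (0.66), and SPRY1 (-0.24) and SPRED1 (-0.21) fell. The EGF receptor ligand genes EREG (0.67), AREG (0.62) and HBEGF (0.60) rose, as did 9 of 21 inflammatory and NF-kB genes, with PTGS2 (0.90) and LIF (0.68) first.

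All 45 genes of the G2 and mitosis list fell, 23 by more than 1, with a median of -1.004. These 23 were more than any other list gave to the 39 genes called lower, and 15 of the 39 stood on no list. The cyclin gene CCNB1 was at 12.02, 11.95 and 12.12 before and 10.72, 11.25 and 10.88 after treatment (-1.08, adjusted p = 2.34e-08 from limma). MKI67, the proliferation marker, was at 12.89, 12.99 and 12.96 against 11.75, 12.15 and 11.75 (-1.06). Within the list the size of the fall varied. CDK1 fell by 0.55, FOXM1 by 0.40 and PTTG1, securin, by 0.31, from 11.06, 11.07 and 11.04 to 10.74, 10.70 and 10.79. Genes of replication and S phase fell less, 35 of 39 with a median of -0.36. The epigenetic factor gene UHRF1 (-0.95) and the primase gene PRIM1 (-0.64) led them, and EXO1, TYMS and CDT1 did not pass. PCNA, the replication clamp and a p53 target, was the only member of this list that rose, from 11.38, 11.43 and 11.39 to 11.88, 11.68 and 11.87 (0.41). In bulk RNA, fewer cells in a phase and less mRNA per cell cannot be told apart.

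Several groups had small median differences, most of them with members that moved mainly in 1 direction. Of 54 cytosolic ribosomal protein genes, 51 rose, with a median of 0.14, the largest being RPL13A (0.31), and these genes have many processed pseudogenes that may share their reads. Of 18 collagen and matrix genes, 14 fell, with a median of -0.27, among them COL12A1 (-0.55), COL3A1 (-0.47) and COL1A1, which went from 17.94, 18.00 and 17.98 to 17.53, 17.69 and 17.53 (-0.39). YAP and TGF-beta response genes were mixed, 4 higher and 10 lower of 17. THBS1, which encodes a matrix glycoprotein, fell most (-0.91), from 16.51, 16.63 and 16.49 to 15.53, 15.85 and 15.52, followed by CTGF (-0.69). The negative regulators SMAD7 (0.50) and LATS2 (0.24) rose. Of 19 sterol synthesis genes, 13 fell and none rose, with a median of -0.29, among them IDI1 (-0.45), FASN (-0.44) and HMGCS1 (-0.44).

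Of the 63 genes called higher, 26 stood on no list. They are named after their values were seen. SLC6A9, a glycine transporter gene, rose from 8.13, 7.93 and 8.15 to 9.92, 9.54 and 9.91 (1.72). ULBP1 (1.62), a ligand of an activating receptor of natural killer cells, SMOX (1.31), a polyamine oxidase gene that itself yields H2O2, GPT2 (1.26), alanine transaminase, and CARS (1.02), cysteinyl-tRNA synthetase, were others. MKNK2, a kinase of the initiation factor eIF4E, rose from 10.70, 10.74 and 10.68 to 12.22, 11.71 and 12.17 (1.33). Of the 15 genes called lower that stood on no list, NDC80 (-1.06), NUF2 (-1.10), CASC5 (-1.04), KIF20B (-1.05), CIT and SGOL2 are also genes of the kinetochore, spindle or cytokinesis. MEOX2 (-1.13), a homeobox gene, IKZF2 (-1.05), a zinc finger factor, and TRPC6 (-1.07), a calcium channel, are not.

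**Figure D3:**
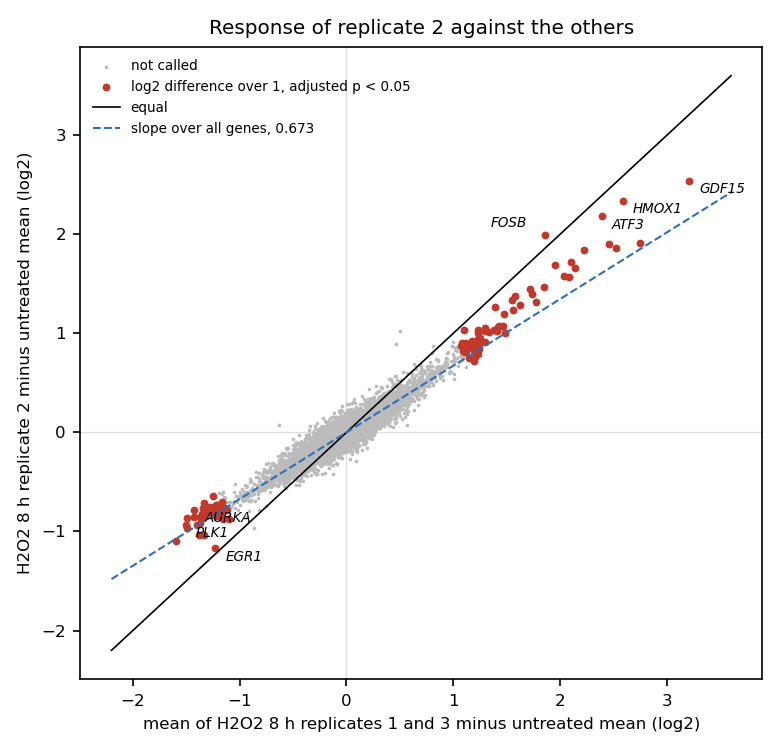
Difference of H2O2 8 h replicate 2 from the untreated mean (vertical axis, log2) against the mean difference of replicates 1 and 3 (horizontal axis, log2), 1 point per gene, with the 102 called genes in red. The solid line marks equal responses and the dashed line the slope of 0.673 over all genes, and FOSB and EGR1 lie near the solid line.

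The weaker response of replicate 2 was not equal among genes. For the 102 called genes, the difference in replicate 2 was 73.6% of that in replicates 1 and 3 at the median, with a range from 51.1% to 107%. The medians were 75.9% for the 63 genes called higher and 63.2% for the 39 called lower. Values over 90% were found for 6 genes, namely FOSB (107%), EGR1 (95.0%), DNAJB9 (93.5%), ATF3 (91.2%), XIRP1 (91.1%) and HMOX1 (90.4%). Values under 60% were found for 8 genes, all called lower, and KIF18A, a mitotic kinesin, had the lowest, with values of 7.99, 8.62 and 8.03 against 9.27, 9.18 and 9.32 in untreated cells. These percentages are a description, since the genes were called on the same libraries. Some genes deviated in replicate 2 without a call. GTF2H2, a subunit of the repair and transcription factor TFIIH, was at 7.64, 8.34 and 7.63 in treated and at 8.50, 8.12 and 8.20 in untreated cells (adjusted p = 0.128). GTF2H2 has near-identical copies, so its counts are uncertain. Among the means of the other 6 groups, replicate 2 lay nearest to the mean of NCS at 4 h (20.36) and NCS at 8 h (20.37), and so did replicates 1 and 3, at 27.86 and 27.31 for NCS at 4 h and 27.35 and 27.16 for NCS at 8 h. Without replicate 2, 29 of 30 ISR genes, 38 of 40 p53 targets and 45 of 45 G2 and mitosis genes passed in the same direction as with it.

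The place of 8 h in the H2O2 time course was examined next. The 4 h, 8 h and 24 h groups share the untreated libraries, so the 8 h libraries were compared directly with those at 4 h and 24 h. Compared with 4 h, 9 genes were higher at 8 h (0.0457%) and 32 lower (0.162%). The adjusted p-value alone called 3548 higher (18%) and 5461 lower (27.7%). Of 22 AP-1 and immediate-early genes, 18 were lower at 8 h than at 4 h and 1 higher, with a median of -0.38. FOSB differed by -2.98 (adjusted p = 1.21e-12 from limma), after a difference from untreated cells of 4.88 at 4 h and 1.90 at 8 h. CELSR2, a cadherin receptor, differed by -1.86, PPP1R10, a phosphatase subunit, by -1.67, the integrin gene ITGA7 by -1.49 and BHLHE40, a transcriptional repressor, by -1.42. Genes that were higher at 8 h included UNC5B (1.32), GDF15 (1.25), MKNK2 (1.21), SLC6A9 (1.19) and ZNF788 (1.16). MKNK2 differed from untreated cells by 0.12 at 4 h and by 1.33 at 8 h. Of the ISR list, 22 genes were higher and 4 lower at 8 h than at 4 h, and of p53 targets 28 were higher and 3 lower. G2 and mitosis genes were lower still, 39 of 45, with a median of -0.48. Without replicate 2, 16 genes were higher than at 4 h in place of 9.

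Compared with 24 h, 74 genes were higher at 8 h (0.376%) and 8 lower (0.0406%). By the adjusted p-value alone, 4569 were higher (23.2%) and 3816 lower (19.4%). All 39 replication genes and all 45 G2 and mitosis genes were higher at 8 h than at 24 h, with medians of 0.97 and 0.79. The replication list had median differences from untreated cells of -0.11, -0.36 and -1.38 at 4, 8 and 24 h, and the G2 and mitosis list of -0.42, -1.004 and -1.76. CDK1 was at -0.10, -0.55 and -1.59 and FAM111B, a protease gene, at -0.62, -0.53 and -2.26. Stress genes that were higher at 8 h than at 24 h included HSPA6 (1.89), FOSB (1.78) and HMOX1 (1.74). HSPA5 differed from untreated cells by 1.00 at 8 h and by -0.17 at 24 h, and 17 of the 20 endoplasmic reticulum genes were higher at 8 h. Genes that were lower at 8 h than at 24 h were DHRS2 (-1.51), OLAH (-1.46), PRKG1 (-1.14), ABCC3 (-1.12), PAPPA (-1.11) and 3 others. DHRS2, a dehydrogenase, differed from untreated cells by 0.43 at 8 h and 1.94 at 24 h, and PRKG1, a cGMP-dependent kinase, by -0.65 and 0.49. The ISR list had medians of 0.73, 1.02 and 0.82 at 4, 8 and 24 h and the p53 list of 0.44, 0.77 and 0.76.

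**Figure D4:**
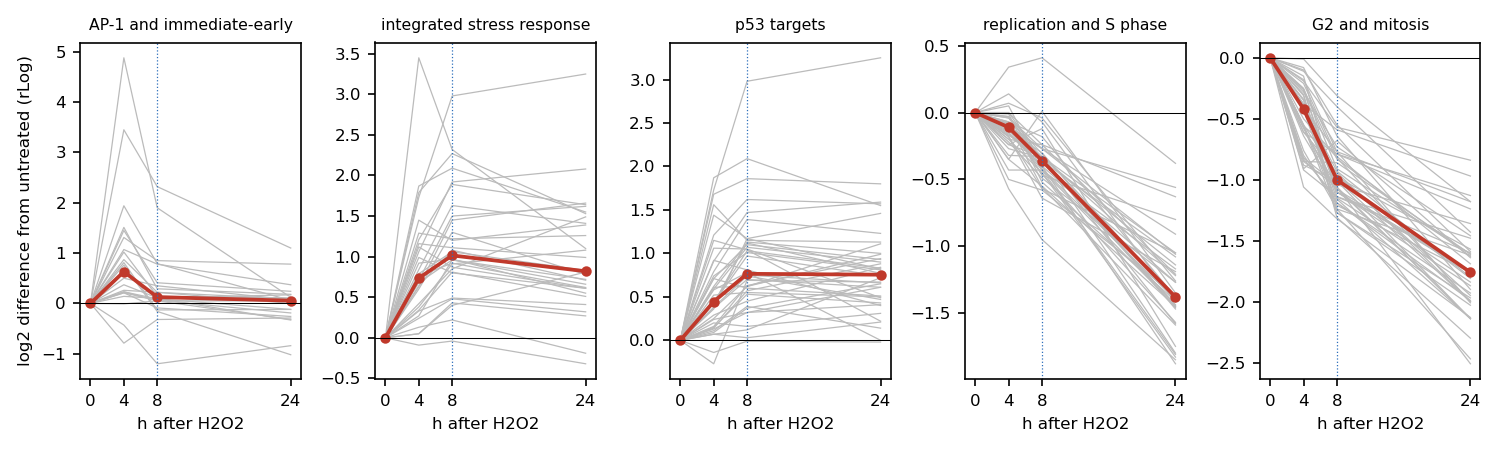
Log2 difference from untreated cells (vertical axis, rLog, with its own scale in each panel) at 0, 4, 8 and 24 h after H2O2 (horizontal axis) for the members of 5 lists in grey, with the list median in red and 8 h marked by the dotted line. The AP-1 median peaks at 4 h, the ISR median is 1.02 at 8 h, and the medians of the replication list and of the G2 and mitosis list go on falling to -1.38 and -1.76 at 24 h.

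To set the oxidant against a drug that breaks DNA directly, the 8 h libraries were compared with NCS at the same time. In this comparison 31 genes were higher in H2O2 (0.157%) and 1, B3GALT2, was lower (0.00508%). The adjusted p-value alone called 3679 higher (18.7%) and 3042 lower (15.4%). Genes with large differences were HSPA6 (2.13), HMOX1 (2.05), FOSB (1.85) and SLC6A9 (1.78). Of 30 ISR genes, 29 were higher in H2O2 and none lower, with a median of 0.90. Against untreated cells ATF4 differed by 0.97 in H2O2 and by -0.04 in NCS, and PSAT1 by 1.50 and 0.01. Of the NRF2 and redox list, 26 of 30 were higher in H2O2 and none lower, with TXNRD1 at 1.06 in H2O2 and -0.14 in NCS. Against untreated cells, 40 of the 63 genes called higher in H2O2 also rose in NCS, 10 of them by more than 1. Of the 39 called lower, 37 also fell in NCS, 33 of them by more than 1. Among all 19694 genes, 2074 rose and 2629 fell in NCS. The H2O2 and NCS groups share the untreated libraries.

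The p53 list was divided between the drugs, with 13 genes higher in H2O2, 10 lower and a median of 0.06. SESN2 (0.97), GDF15 (0.75), PMAIP1 (0.64), TP53INP1 (0.46) and GADD45A (0.44) were higher in H2O2. By contrast, DDB2 (-0.49, adjusted p = 7.95e-09 from limma), FDXR (-0.42), TP53I3 (-0.33), XPC (-0.28) and BAX (-0.22) were lower. BBC3 (0.01, adjusted p = 0.954), BTG2 (0.01, adjusted p = 0.954) and CDKN1A (0.15, adjusted p = 0.135) did not pass. Of 45 G2 and mitosis genes, 21 were higher in H2O2 and none lower, with a median of 0.19. PLK1 (0.77) and KIF20A (0.76) had fallen less in H2O2 than in NCS. These values include the weaker replicate 2. Against untreated cells, the list medians were -1.129, -0.714 and -1.112 in H2O2 replicates 1 to 3 and -1.102 in NCS. Without replicate 2 the H2O2 median was -1.145, so by its median the list had not fallen less in replicates 1 and 3. EGR1 fell by 1.20 in H2O2 and by 1.15 in NCS, a difference of -0.06 that did not pass (adjusted p = 0.668). Collagen and matrix genes were lower in H2O2 than in NCS, 13 of 18, with a median of -0.34. Of the 20 endoplasmic reticulum genes, 19 also rose in NCS against untreated cells, with a median of 0.23 beside 0.31 in H2O2. Compared directly, 10 of them were higher in H2O2 and 1 lower, with a median of 0.07. Of the 21 inflammatory and NF-kB genes, 10 rose in NCS and 9 in H2O2. The rise of these lists was therefore not particular to H2O2. The single gene called lower, B3GALT2, rests on replicate 1, since without it no gene passed both limits. Without H2O2 replicate 2, 5 genes were called lower, and without NCS replicate 3, 2 genes were.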

How the data were processed

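RNA of hTERT-HPNE cells was sequenced with a stranded poly(A) kit in 21 libraries, 7 groups of 3. The deposited log2 values are rLog counts. Per the labels and methods, the authors aligned reads with HISAT2 to hg19, counted them per gene with HTSeq and transformed the counts with DESeq2. Tool versions are not given in the sources used here. No further normalization was applied. A spreadsheet date stood in place of 28 gene names, and 2 names occurred repeatedly. Genes at 0 in every library were left out.

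Differences were tested in R 4.3.3 with limma 3.58.1, in 1 fit of 7 groups with a mean-variance trend. P-values were two-sided and adjusted by Benjamini-Hochberg over 19694 genes. The fit was also run on simulated data with independent noise and equal shifts in all 8 h libraries. That simulation held no weaker library such as replicate 2, so it does not show how the fit handles one. An exact permutation test of 3 libraries against 3 cannot give a p-value below 0.1, so none was used for single genes. Groups came from the labels. The members and the 30 gene lists were chosen with earlier results of these data known. Of the genes on the lists, 3 were not matched. Named are the 12 largest rises and 12 deepest falls with groups that do not overlap, up to 5 members of each list with the largest differences and members that did not pass, up to 5 genes in each direction of the other comparisons, the p53 targets the study follows, and the 5 genes in which replicate 2 lies furthest from replicates 1 and 3. Other genes were named after their values were seen. Values of 3 genes, 1 of them among the 12 largest rises, are not reported here. Alternatives were quantile normalization, aligned library medians, a minimum mean value of 5, no filter, a log2 limit of 0.58, a fit of the compared groups only, no trend, the replicate number as a block, and each library left out. Promoters came from RefSeq (GRCh38.p14), whose table is not complete.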

Additional observations from a re-analysis of the deposited data

Results flagged for a closer look

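Several genes named in the report differed between time points of the same treatment, by more than 1 on the log2 scale with an adjusted p-value under 0.05 in limma's test of the difference. Between 8 h and 4 h, GDF15 was 1.25 higher at 8 h (adjusted p = 4.77e-08) and UNC5B 1.32 higher, while FOSB was lower (-2.98), as were ATF3 (-1.13) and PLK1 (-1.002). Between 8 h and 24 h, HSPA6 was 1.89 higher at 8 h, FOSB 1.78, HMOX1 1.74, ATF3 1.21, KIF20A 1.23 and LMNB1 1.23. KIF20A and LMNB1 were below untreated cells at 8 h and further below them at 24 h. In GTPBP6, chosen after its values were seen, 1 treated library stood apart, with values of 3.79, 3.88 and 4.96 at 8 h against 3.79, 3.97 and 3.68 in untreated cells, and the difference did not pass (adjusted p = 0.376).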

How the results depend on the processing

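Of 462 values of 33 named genes recomputed under the alternatives, 460 kept their direction and their joint call by both limits, and none reversed. PMAIP1 fell below the limit of 1 without replicate 1 of the 8 h group (0.94), and PIDD (0.70) passed at the lower limit. TP53I3, under the limit of 1 throughout, missed the limma adjusted p limit in a fit of the compared groups only (0.0759) and without replicate 3 of the 8 h group (0.0645). At a log2 limit of 0.58, the counts were 272 higher and 208 lower against untreated cells, 194 and 245 than at 4 h, 373 and 162 than at 24 h, and 140 and 41 than in NCS. With a library left out, genes lower than untreated numbered 24 to 61, genes higher than at 4 h 7 to 16, and genes lower than in NCS 0 to 5. The other counts stayed within 1.5 times, as did the slopes of replicate 2 (0.673 to 0.675). In a fit of the compared groups only, the adjusted p-value alone called 2720 genes higher and 2691 lower. With the replicate number as a block, 63 and 39 genes passed both limits, as without it, and 3742 and 3713 the adjusted p-value alone. Same-numbered libraries had deviations correlated at 0.037, -0.056 and 0.17 (Pearson, across genes) with untreated cells and 0.192, 0.038 and 0.189 with NCS. Differently numbered libraries lay between -0.152 and 0.094 with untreated cells and between -0.182 and -0.001 with NCS. With NCS, all same-numbered values were thus above the differently numbered ones. Since not every same-numbered pair was above 0.1, the numbers were not taken as pairs, and a link between same-numbered libraries was not tested. The share of higher genes among those called was 61.8%, 61.4% with aligned medians and 63% after quantile normalization. Depth is unknown, and rLog shrinkage limits what can be seen of low genes.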

Other observations

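Gene groups outside the stress and cell cycle programs also differed between H2O2 at 8 h and untreated cells by limma's adjusted p-value. Of 12 nuclear and snoRNA-host long noncoding RNAs, 8 rose and 3 fell. The snoRNA hosts GAS5 (0.65), SNHG15 (0.52) and SNHG8 (0.47) rose, whereas MALAT1 (-0.32), NEAT1 (-0.19) and TUG1 (-0.17), which stay in or act in the nucleus, fell. GAS5 was at 10.65, 10.69 and 10.70 in untreated and at 11.36, 11.19 and 11.44 in treated cells, without overlap. Of 9 mRNA decay factors, 6 rose, with TOB1 (0.95) and BTG1 (0.59) after BTG2. TOB1 and BTG1, antiproliferative relatives of BTG2, were both higher in H2O2 than in NCS (limma adjusted p = 0.0376 and 2.89e-09). Against untreated cells TOB1 was at 0.95 in H2O2 and 0.76 in NCS, and BTG1 at 0.59 and -0.17. TXNIP, a glucose-sensitive inhibitor of thioredoxin, fell by 0.44 while the related arrestin gene ARRDC3 rose by 0.63. TXNIP was at -1.19 at 4 h and at 0.48 at 24 h against untreated cells. Of 16 autophagy and lysosome genes, 9 rose, among them SQSTM1 (0.71), MAP1LC3B (0.67) and GABARAPL1 (0.62), and WIPI1 fell (-0.12).

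Among DNA repair genes, those of double-strand breaks were mostly lower. Of 26 genes of double-strand break repair, 20 fell and 1, LIG4 (0.22), rose, with a median of -0.28. BRCA2 (-0.60), BRCA1 (-0.57), FANCD2 (-0.57) and ATM (-0.53) fell most. ATM, the kinase that signals double-strand breaks, was at 10.75, 10.70 and 10.63 in untreated and at 10.08, 10.31 and 10.10 in treated cells, and differed from untreated cells by -0.09 in NCS at 8 h and by 0.06 in H2O2 at 24 h. Base excision repair mends oxidized bases, and nucleotide excision repair removes bulky lesions. Of 25 genes of these pathways, 11 fell, 2 rose and 12 did not pass, with a median of -0.08. UNG (-0.47), PARP1 (-0.45), XRCC1 (-0.42) and ERCC6 (-0.37) fell, XPC (0.37) rose, and OGG1 (-0.10), which removes oxidized guanine, did not pass. Of 33 respiratory chain genes, 4 rose and 3 fell, of 20 interferon-stimulated genes 4 and 2, of 15 splicing factor and kinase genes 4 and 4, of 20 glycolysis and hypoxia-type genes 8 and 6, of 8 ID and BMP genes 3 and 2, and of 7 genes of the TXNIP group 6 and 1. Of 19 clustered histone genes, whose mRNAs mostly lack a poly(A) tail, 1 rose and none fell.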
